A study of Mus musculus with 12 samples.

Results

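The genes described here are 7 that process the lesions left by the deaminase AID during somatic hypermutation: Ung, Apex2, Msh6, Pms2, Exo1, Polh and Rev1. They were taken by symbol, through their Entrez identifiers, from a table of 27179 gene identifiers, of which 13131 had enough counts to be tested. All 7 were in the table and all 7 passed that filter. The deaminase transcript itself is not analysed here.

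The data were read counts per gene from 12 polyA RNA libraries of sorted C57BL/6 mouse B cells, in 6 groups of 2 pools. The study asked what the loss of c-Myb or of Moz does to the transcripts of B cells after immunisation with the hapten-protein conjugate NP-KLH. Germinal centre (GC) B cells were sorted 12 days (Myb experiment) or 7 days (Moz experiment) after a first dose of NP-KLH in alum, and plasmablasts 5 days after a further injection of NP-KLH in PBS. The Myb knockout groups carried Myb fl/fl and CD23-cre T/+, with pools of 5 and 4 mice for plasmablasts and of 2 and 3 mice for GC B cells. Their control groups carried Myb fl/fl without cre, with pools of 6 and 7 mice for plasmablasts and of 3 and 2 mice for GC B cells, so CD23-cre and the loss of Myb cannot be told apart. The Moz knockout group carried Moz fl/fl and AID-cre T/+ (pools of 6 and 8 mice), and its control group carried AID-cre T/+ alone (pools of 6 and 5 mice). The CD23 promoter drives cre in mature B cells before they enter the GC, whereas AID-cre is switched on in activated B cells. Same-numbered knockout and control pools came from the same experiment dates.

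Somatic hypermutation begins when AID turns cytosines of immunoglobulin genes into uracils. The uracil is removed by the glycosylase UNG or bound as a mismatch by a complex that contains MSH6, and in GC B cells both routes can end in error-prone filling by translesion polymerases instead of faithful repair. REV1 inserts cytosine opposite the abasic sites that UNG leaves, and polymerase eta, encoded by Polh, is the main source of mutations at A and T bases downstream of mismatch recognition. EXO1 cuts the gap that is then filled, APEX2 is an abasic-site endonuclease, and PMS2 is the nicking subunit of the mismatch repair endonuclease.

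Ung (gene ID 22256) lies at chr5:114130366-114139321 of GRCm38.p6, the RefSeq release of the mm10 build. Apex2 (77622) lies at chrX:150426974-150588206. Msh6 (17688) and Polh (80905) share a chromosome, at chr17:87975050-87990892 and chr17:46171355-46202641. Pms2 (18861) lies at chr5:143909901-143972745, and Exo1 (26909) and Rev1 (56210) at chr1:175880768-175911396 and chr1:38052786-38129921. The counted exon lengths in the deposited table run from 1885 bases for Apex2 to 5506 bases for Exo1.

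The promoter windows of 4 genes are shown because 3 of these genes differed by more than 4-fold between plasmablasts and GC B cells, and the fourth, Pms2, by less. Each is the RefSeq window (GRCm38.p6) from 250 bases before to 50 bases after an annotated start, written 5′ to 3′ on the gene's own strand. Capitals mark every match, on either strand, to the letters of a MYB motif (AACNG), an NFY motif (CCAAT), a CHR motif (TTTGAA) or an E2F-like motif. For the E2F-like motif the letters were TTCCCGC or its variant TTCGCGC, and likewise TTGCCGC or its variant TTGGCGC. The windows are Ung at chr5:114130185-114130484 (+), Msh6 at chr17:87974800-87975099 (+), Polh at chr17:46202592-46202891 (-) and Pms2 at chr5:143909751-143910050 (+).
Ung: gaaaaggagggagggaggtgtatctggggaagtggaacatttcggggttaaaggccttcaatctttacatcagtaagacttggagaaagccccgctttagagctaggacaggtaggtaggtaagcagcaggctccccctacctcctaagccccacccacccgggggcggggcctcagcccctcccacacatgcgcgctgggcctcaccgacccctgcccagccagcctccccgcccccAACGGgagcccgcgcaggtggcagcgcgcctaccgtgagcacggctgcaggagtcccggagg
Msh6: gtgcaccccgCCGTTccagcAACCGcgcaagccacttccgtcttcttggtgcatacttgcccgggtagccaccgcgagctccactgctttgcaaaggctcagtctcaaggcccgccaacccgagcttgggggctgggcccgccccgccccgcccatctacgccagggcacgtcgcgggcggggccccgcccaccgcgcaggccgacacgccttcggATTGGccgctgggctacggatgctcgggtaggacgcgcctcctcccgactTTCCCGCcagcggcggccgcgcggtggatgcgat
Polh: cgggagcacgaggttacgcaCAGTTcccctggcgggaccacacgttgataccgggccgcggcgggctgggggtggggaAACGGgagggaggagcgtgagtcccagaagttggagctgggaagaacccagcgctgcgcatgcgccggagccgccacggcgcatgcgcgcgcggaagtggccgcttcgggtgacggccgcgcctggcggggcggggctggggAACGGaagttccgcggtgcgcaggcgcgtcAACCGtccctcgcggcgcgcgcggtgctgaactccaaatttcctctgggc
Pms2: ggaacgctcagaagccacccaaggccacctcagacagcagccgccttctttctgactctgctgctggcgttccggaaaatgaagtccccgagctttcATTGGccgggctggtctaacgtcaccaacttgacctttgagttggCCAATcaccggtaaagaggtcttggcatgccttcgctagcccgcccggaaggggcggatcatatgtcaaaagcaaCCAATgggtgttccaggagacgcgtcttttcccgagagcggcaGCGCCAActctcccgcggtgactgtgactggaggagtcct

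The Ung window held 1 MYB match and the Polh window 4, against MYB letters in 80.3% of all 32851 mouse windows of the same length. The Msh6 window held 2 MYB matches, 1 E2F-like match and 1 NFY match. The Pms2 window held 1 E2F-like match and 3 NFY matches and no MYB match. E2F-like letters stood in 9.57% of all windows, NFY letters in 37.4% and CHR letters, which no member's window held, in 17.9%. The Rev1 window held no match to any of the 4 motifs, and its GC content was 83.0%, against 64.7% for Ung, 71.7% for Msh6, 72.0% for Polh, 58.3% for Pms2 and a median of 52.7% over all windows. No capital overlapped another motif, and a match is only a run of letters. Exo1 and Apex2 had no window in the promoter set, so no motif was searched for them.

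Library totals ran from 8285934 to 24801297 counts. Immunoglobulin transcripts took 65.0% to 70.0% of the plasmablast counts and 1.59% to 9.16% of the GC counts, and TMM scaling factors were 0.392 to 0.450 in plasmablasts and 1.45 to 1.73 in GC B cells. All 7 plasmablast markers were higher, and all 8 GC markers lower, in plasmablasts than in GC B cells. GC markers summed to 254 to 300 CPM in plasmablast pools and 2320 to 3790 CPM in GC pools. Naive B cell markers summed to 43.6 to 208 CPM in plasmablasts and 206 to 562 CPM in GC B cells. T cell markers summed to at most 8.64 CPM and erythroid markers to at most 1.89 CPM in any pool. Myeloid markers summed to 35.8 to 74.0 CPM in plasmablasts and 7.17 to 39.7 CPM in GC B cells. Of these 6 markers, 3 had estimates above 0 in plasmablasts against GC B cells in knockouts and 4 in controls. In each genotype 2 were called higher, Csf1r and Fcer1g. NK and plasmacytoid dendritic cell markers, which include Bst2, summed to 156 to 337 CPM in plasmablasts and 12.9 to 34.7 CPM in GC B cells. Bst2 alone averaged 245 CPM in knockout plasmablasts and 238 CPM in control plasmablasts, and every other tested marker of that list at most 2.67 CPM. Of its 5 tested markers, 2 had estimates above 0 in plasmablasts against GC B cells, in knockouts and in controls. Ncr1 was at 0 in all plasmablast pools, and Siglech and Cd8a were at 0 in the Myb knockout ones. Their part in the results below was not tested. The library labelled Myb knockout GC pool 1, described as 2 females, had 67.2 and 54.1 unscaled CPM of the Y-linked genes Ddx3y and Eif2s3y, which goes against its label, while GC pool 2 of the same genotype had 0.323 and 0.108. The differences, list counts, shares and GC likenesses that use that library are also given without it.

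Every gene of the set had less transcript in plasmablasts than in GC B cells, in Myb knockouts and in Myb controls alike. The difference was 16.3-fold in knockouts and 13.9-fold in controls for Exo1, and 1.73-fold in knockouts and 1.98-fold in controls for Apex2. All 7 passed the edgeR quasi-likelihood test in both genotypes at an adjusted p of 0.05, against a background of 27.2% of the 13131 genes called lower in knockouts and 28.1% in controls. The 7 were chosen with earlier results of these data known, so their count beside this background is a description and no test of the set. The median log2 fold change of the 7 was -2.10 in both genotypes, beside a median of -0.17 over all genes tested. Plasmablasts were sorted 5 days after a further injection in PBS, and these GC B cells 12 days after a first dose in alum. Their pools share no experiment date, so cell type cannot be told apart from immunisation, time or date. Values are TMM-normalised CPM (counts scaled by library size). In sorted bulk pools, fewer cells that make a transcript and less of it per cell cannot be told apart.

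**Figure D1:**
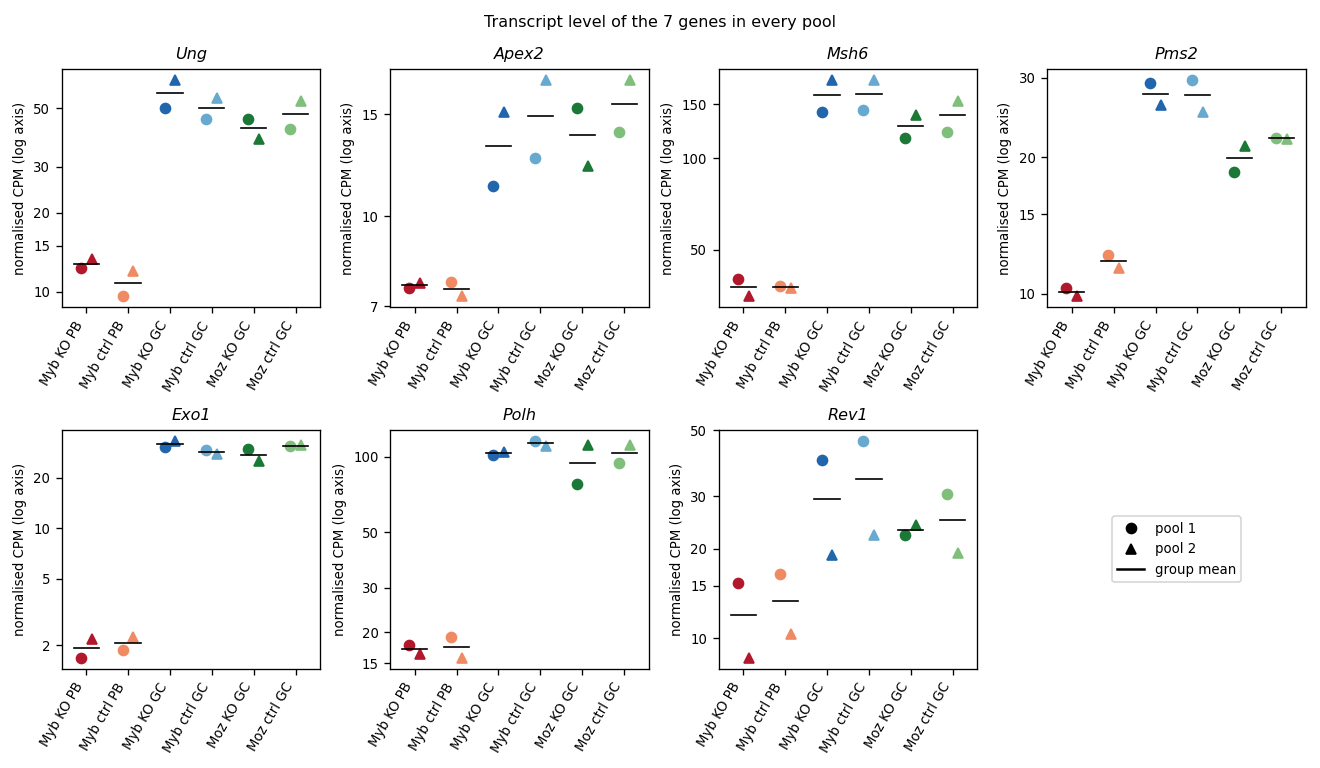
Normalised CPM (log axis) of each of the 7 genes in the 12 pools, plasmablasts (PB) left of GC B cells and knockout (KO) left of control (ctrl). Circles are pool 1, triangles pool 2, and bars the mean of 2 pools. For every gene the 4 plasmablast pools lie below the 8 GC pools, with the narrowest gap for Rev1 (16.4 CPM in the highest plasmablast pool and 19.1 CPM in the lowest GC pool). The share of all genes tested with such a gap was not counted.

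The uracil route is headed by Ung, whose product removes the uracil. Ung had 12.3 and 13.3 CPM in Myb knockout plasmablasts and 9.61 and 12.0 CPM in control plasmablasts. In GC B cells it had 50.2 and 64.4 CPM in Myb knockout pools and 45.4 and 54.8 CPM in their controls, and 45.6 and 38.4 CPM in Moz knockout pools and 41.7 and 53.4 CPM in theirs. The highest plasmablast pool stayed below the lowest GC pool by a factor of 2.89, and neighbouring GC groups overlapped, while both Moz knockout pools lay below both Myb knockout pools. In knockouts Ung was 4.46-fold lower in plasmablasts (log2 -2.16, SE 0.23, edgeR adjusted p = 1.28e-05), and in controls 4.64-fold lower (log2 -2.21, SE 0.23, adjusted p = 9.65e-06).

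Apex2 encodes a nuclease that acts at abasic sites and 3′ blocked ends. Its plasmablast values were 7.53 and 7.69 CPM in Myb knockouts and 7.72 and 7.28 CPM in controls. GC pools had 11.3 and 15.1 CPM (Myb knockout), 12.6 and 17.2 CPM (Myb control), 15.4 and 12.2 CPM (Moz knockout) and 14.0 and 17.2 CPM (Moz control). The plasmablast pools lay close together and below every GC pool, whereas the 4 GC groups overlapped. Apex2 fell least among the 7 (knockouts log2 -0.79, SE 0.25, edgeR adjusted p = 0.0199, and controls log2 -0.99, SE 0.25, adjusted p = 0.00565). The call depended on single libraries. In knockouts it was lost without GC pool 2 (log2 -0.58, adjusted p = 0.137), without plasmablast pool 1 (log2 -0.75, adjusted p = 0.0894) and without plasmablast pool 2 (log2 -0.82, adjusted p = 0.0673). In controls it was lost without GC pool 2 (log2 -0.77, adjusted p = 0.0539).

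On the mismatch route, Msh6 encodes the mismatch-recognition partner of MutS alpha. It had 40.2 and 35.1 CPM in Myb knockout plasmablasts and 38.1 and 37.3 CPM in control plasmablasts. GC pools had 142 and 180 CPM (Myb knockout), 144 and 181 CPM (Myb control), 116 and 138 CPM (Moz knockout) and 122 and 154 CPM (Moz control). All plasmablast pools were low and close together. In GC B cells, both Moz knockout pools lay below all 4 Myb pools, and the Moz control pools overlapped every other GC group. The fold difference was 4.28 in knockouts (log2 -2.10, SE 0.22, edgeR adjusted p = 1.25e-05) and 4.30 in controls (log2 -2.10, SE 0.22, adjusted p = 1.08e-05).

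Pms2, the nicking subunit of MutL alpha, fell less. Plasmablasts had 10.3 and 9.87 CPM in Myb knockouts and 12.2 and 11.4 CPM in controls, and GC pools had 29.2 and 26.1 CPM in Myb knockouts and 29.7 and 25.2 CPM in controls. Moz GC pools had 18.6 and 21.2 CPM in knockouts and 22.1 and 22.0 CPM in controls. The plasmablast pools were lowest, the day 7 Moz pools lay between them and the day 12 Myb pools, and none of these 3 sets overlapped. Pms2 was 2.75-fold lower in knockout plasmablasts (log2 -1.46, SE 0.19, edgeR adjusted p = 5.19e-05) and 2.32-fold lower in control plasmablasts (log2 -1.21, SE 0.18, adjusted p = 0.000175) than in the GC B cells of the same genotype.

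Exo1, the exonuclease that resects from the nick, differed most. It had 1.69 and 2.18 CPM in Myb knockout plasmablasts and 1.89 and 2.26 CPM in controls, which rest on only 13 to 21 counts a pool. GC pools had 30.4 and 33.3 CPM (Myb knockout), 29.2 and 27.9 CPM (Myb control), 29.8 and 25.3 CPM (Moz knockout) and 30.9 and 31.5 CPM (Moz control), on 346 to 1129 counts. The lowest GC pool stood 11.2 times above the highest plasmablast pool, and the GC pools varied little. The log2 fold change was -4.03 in knockouts (SE 0.23, edgeR adjusted p = 2.42e-07) and -3.79 in controls (SE 0.23, adjusted p = 2.04e-07). In both genotypes the 95% intervals of Exo1 (-4.53 to -3.52 in knockouts and -4.29 to -3.30 in controls) lay below those of the other 6 genes.

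Among the polymerases, Polh had 17.8 and 16.3 CPM in Myb knockout plasmablasts and 19.1 and 15.8 CPM in control plasmablasts. In GC B cells it had 102 and 105 CPM in Myb knockouts and 116 and 111 CPM in controls, and 77.9 and 112 CPM in Moz knockouts and 95.0 and 112 CPM in controls. Every GC pool was at least 4.07 times the highest plasmablast pool, and the lowest GC value was that of 1 Moz knockout pool. Polh was 6.07-fold lower in knockout plasmablasts (log2 -2.60, SE 0.23, edgeR adjusted p = 2.74e-06) and 6.48-fold lower in control plasmablasts (log2 -2.70, SE 0.23, adjusted p = 1.73e-06).

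Rev1, the deoxycytidyl transferase, was the least steady. Plasmablasts had 15.3 and 8.61 CPM in Myb knockouts and 16.4 and 10.3 CPM in controls. GC pools had 39.8 and 19.1 CPM (Myb knockout), 46.0 and 22.3 CPM (Myb control), 22.2 and 24.0 CPM (Moz knockout) and 30.5 and 19.3 CPM (Moz control). Pool 1 was high and pool 2 low in each Myb group, and plasmablast pool 1 of the controls came within a factor of 1.16 of the lowest GC pool. The log2 fold change was -1.31 in knockouts (SE 0.45, edgeR adjusted p = 0.0299) and -1.35 in controls (SE 0.45, adjusted p = 0.0241).

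The Rev1 call depended on single libraries too. In knockouts it was lost without GC pool 1, the library whose Y-linked transcripts go against its label (log2 -0.69, adjusted p = 0.254), and without plasmablast pool 2 (log2 -0.96, adjusted p = 0.181). In controls it was lost without GC pool 1 (log2 -0.74, adjusted p = 0.222) and without plasmablast pool 2 (log2 -1.08, adjusted p = 0.137). Without Myb knockout GC pool 1 the other 6 genes kept their call in knockouts, with log2 -4.10 for Exo1, -2.64 for Polh, -2.34 for Ung, -2.27 for Msh6, -1.39 for Pms2 and -1.0 for Apex2.

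**Figure D2:**
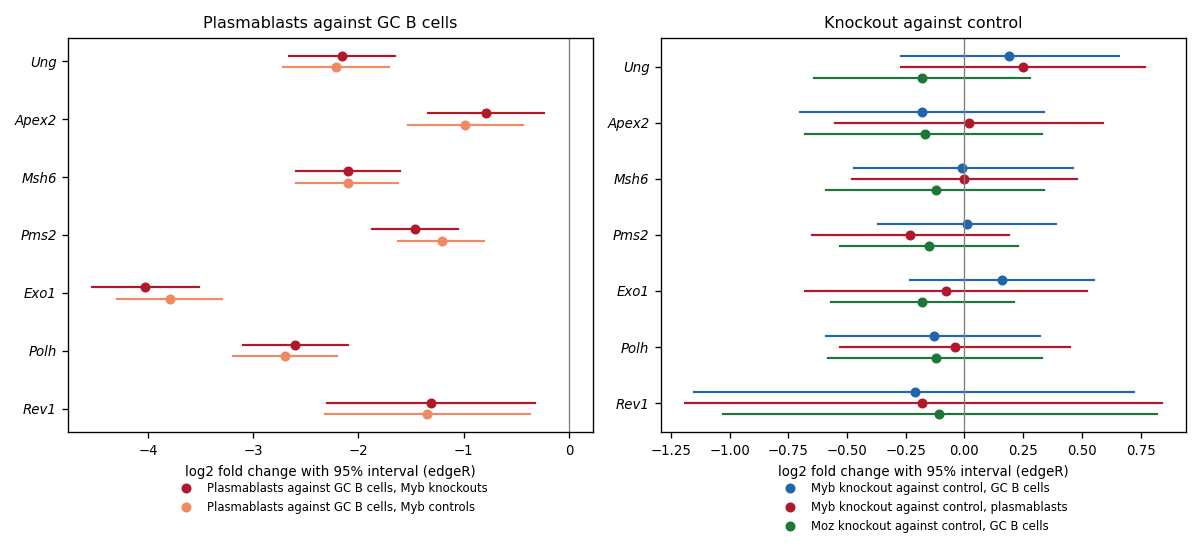
Log2 fold changes with 95% intervals from edgeR (n = 2 pools per group). The left panel sets plasmablasts against GC B cells, in Myb knockouts and in Myb controls, and all 14 intervals lie below 0. The right panel sets knockout against control in 3 comparisons, and every interval spans 0, with the widest for Rev1.

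Replicate 1 and replicate 2 pools came from different dates in every group: all pools numbered 1 were from July or August and all numbered 2 from March to June. Rev1 was higher in pool 1 in 5 of 6 groups, with ratios of pool 1 to pool 2 from 0.924 in Moz knockouts to 2.08 in Myb knockout GC B cells. In the fit with the replicate number as a term, the difference of pool 1 from pool 2 was log2 0.68 (SE 0.15, edgeR adjusted p = 0.0237), beside 5.69% of all genes called higher and 4.01% called lower. This comparison was chosen after the Rev1 values were seen. Over alternatives its adjusted p ran from 4.63e-05 to 0.105, and the call was lost without any 1 of the 4 Myb GC pools (log2 0.60 to 0.62), without either Moz control pool (log2 0.69 each) and in the GC libraries alone (log2 0.69, adjusted p = 0.0711). The sexes in the pools moved with the number in Myb GC B cells, where both pools numbered 1 had Y-linked transcripts and both numbered 2 had less than 0.5 CPM of each, and their part in the Rev1 difference was not tested. For the other 6 genes the adjusted p of this term was 0.235 or more.

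Levels of different genes can be compared only per length. As RPKM, control plasmablasts had 8.84 ± 0.133 of Msh6, 6.77 ± 0.909 of Polh, 5.16 ± 0.822 of Ung, 3.98 ± 0.167 of Apex2, 3.66 ± 0.173 of Pms2, 3.14 ± 1.02 of Rev1 and 0.376 ± 0.0479 of Exo1 (SD, n = 2). Control GC B cells of the Myb experiment had 44.0 ± 1.35 of Polh, 38.0 ± 6.13 of Msh6, 23.9 ± 3.18 of Ung, 8.49 ± 0.974 of Pms2, 8.01 ± 3.95 of Rev1, 7.91 ± 1.70 of Apex2 and 5.18 ± 0.167 of Exo1. Msh6, Polh and Ung led in both cell types and Exo1 was last in both. In the GC B cells Polh and Msh6 differed by less than the SD of Msh6, and in both cell types Pms2, Rev1 and Apex2 differed by less than the SD of Rev1.

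Because the falls were unequal, the make-up of the set differed. As a share of the summed RPKM of the 7 genes, Msh6, Polh and Ung together made up a median of 66.8% in the 4 plasmablast pools, against 78.4% in the 4 Myb GC pools and 78.2% in the 4 Moz GC pools. Polh had a median share of 20.7% in plasmablasts (19.9% to 22.5%), against 31.1% in Myb GC B cells (29.1% to 34.0%) and 33.0% in Moz GC B cells (29.1% to 37.1%). Exo1 had 1.17% in plasmablasts, against 4.16% in Myb GC B cells and 4.68% in Moz GC B cells. Apex2 went the other way, with 12.5% in plasmablasts (12.0% to 13.4%), against 5.38% in Myb GC B cells (4.74% to 6.57%) and 6.77% in Moz GC B cells (5.53% to 7.88%). Pms2 also took a larger share in plasmablasts (10.7%, against 6.34% in Myb GC B cells and 5.56% in Moz GC B cells). The share of Ung (18.2% in plasmablasts, against 18.9% in Myb GC B cells and 18.5% in Moz GC B cells) overlapped between the cell types, and so did that of Msh6 (27.7% in plasmablasts, against 28.3% in Myb GC B cells and 26.8% in Moz GC B cells). Rev1 had 9.31% in plasmablasts (6.63% to 11.7%), which overlapped its 5.57% in Myb GC B cells (3.19% to 8.17%). In Moz GC B cells Rev1 had 4.9% (3.46% to 6.37%), below every plasmablast pool. Without Myb knockout GC pool 1 the medians of the 3 other Myb GC pools were 80.4% for Msh6, Polh and Ung together, 31.0% for Polh, 4.01% for Exo1, 5.69% for Apex2, 5.75% for Pms2, 18.8% for Ung and 30.1% for Msh6. The median of Rev1 in those pools was 3.76%. Shares are within a library, so TMM scaling does not enter them, and shares of one library depend on one another.

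**Figure D3:**
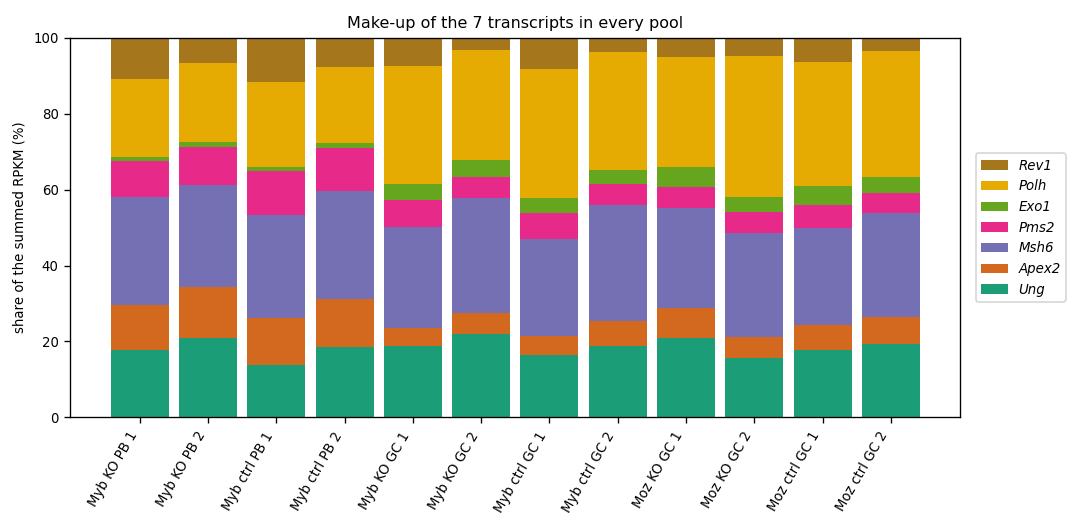
Share of each gene in the summed RPKM of the 7 genes, in percent, for each of the 12 pools. Plasmablast pools stand on the left and GC pools on the right, knockout left of control. The Polh band is narrower and the Apex2 and Pms2 bands wider in all 4 plasmablast pools than in the 8 GC pools, and the Exo1 band is at most 1.33% of the plasmablast bars.

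Other genes of the same pathways were taken from lists, to place the 7 among their partners in plasmablasts against GC B cells, where 24.4% of all genes were called higher in knockouts and 25.0% in controls. Of 16 base excision repair genes tested, 10 were lower and 2 higher in both genotypes (median log2 -1.02 in knockouts and -0.92 in controls). The largest falls in controls were in the glycosylase genes Neil3 (log2 -4.02) and Neil1 (-2.75), in the replicative ligase gene Lig1 (-3.96) and in the scaffold gene Xrcc1 (-2.82). The 2 higher genes, named after their values were seen, were the ligase gene Lig3 (log2 1.64) and the 8-oxoguanine glycosylase gene Ogg1 (1.00). In knockouts the Ogg1 call was lost without GC pool 1 (adjusted p = 0.186), GC pool 2 (0.0651) or plasmablast pool 2 (0.379), without a filter (0.0921) and in the compared groups alone (0.0840).

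Of 16 genes of mismatch repair and its resynthesis, 14 were lower and 0 higher in both genotypes, with a median of -2.55 in each. In controls the polymerase delta subunits Pold1 (log2 -4.33) and Pold4 (-4.29) and the clamp-loader subunits Rfc4 (-3.08) and Rfc3 (-2.98) fell most. The 2 that did not pass, named after their values were seen, were Mlh3 (log2 0.34, adjusted p = 0.341) and Pold2 (log2 -0.21, adjusted p = 0.358). Of 15 genes of translesion synthesis and PCNA ubiquitination, 6 were lower in knockouts and 7 in controls, 0 were higher, and the medians were -0.66 in knockouts and -0.74 in controls. In controls the largest falls among genes whose mean log2 CPM reached 2 were in Polq (log2 -3.45), the PCNA ubiquitin ligase gene Rad18 (-1.88), Ube2n (-1.82) and Poli (-1.31). Poln, called at log2 -2.18, lay below that level and is named after its value was seen.

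Of 21 genes of AID cofactors, UNG control and switch joining, 8 were lower and 1 higher in knockouts, and 10 lower and 1 higher in controls. The medians were -0.53 in knockouts and -0.61 in controls. Fam72a, whose product lowers UNG protein, was lower (controls log2 -3.84, SE 0.33, edgeR adjusted p = 2.09e-06), as was Hmces, which encodes a shield for abasic sites (log2 -3.02, SE 0.25, adjusted p = 1.51e-06). The end-joining genes Prkdc (log2 -1.11) and Xrcc6 (-1.05) were lower. The 1 higher gene, named after its value was seen, was Xrcc4 (0.80). The Prkdc call was lost without control GC pool 1 (adjusted p = 0.117) or control plasmablast pool 2 (0.138), and the Xrcc4 call without the same pools (0.121 and 0.0930). Without knockout GC pool 2 or plasmablast pool 1, 5 genes of the list were lower in knockouts, and 0 were higher without either knockout GC pool or plasmablast pool 2. Without either control plasmablast pool, 6 were lower in controls.

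A list of replication licensing and proliferation genes moved in the same direction as the 7 repair genes, with all 14 lower in both genotypes (median log2 -3.40 in knockouts and -3.74 in controls). Mcm5 (log2 -4.79) and Mcm3 (-4.73), subunits of the replicative helicase, were lower by more than Exo1 in controls. Summed over the list, plasmablast pools had 526 to 668 CPM and GC pools 3390 to 4880 CPM. Without Myb knockout GC pool 1 the knockout counts were 9 lower and 1 higher for base excision repair (median -1.09), 13 lower for mismatch repair (-2.59), 7 lower for translesion synthesis (-0.44), 7 lower and 0 higher for the AID cofactor list (-0.33) and 13 lower for licensing (-3.46). The part of proliferation in the falls of the 7 genes was not tested.

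**Figure D4:**
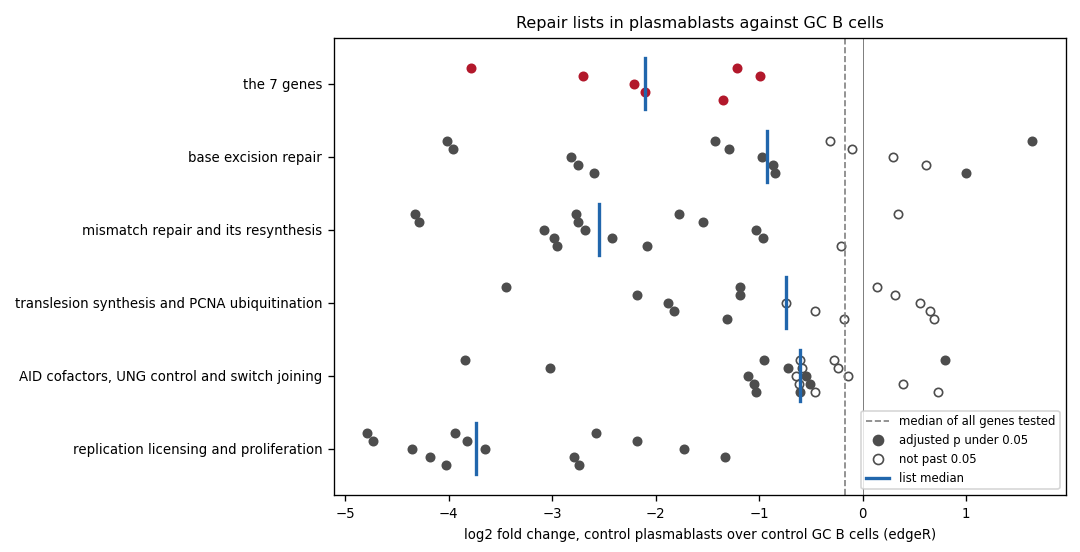
Log2 fold change of control plasmablasts over control GC B cells (edgeR) for the 7 genes and for 5 lists, 1 point per gene. Filled points passed an adjusted p of 0.05, open points did not, blue lines are list medians and the dashed line is the median of all genes tested (-0.17). The median of the 7 genes (-2.10) lies between those of the base excision repair list (-0.92) and the mismatch repair list (-2.55). That of the licensing list is lowest (-3.74).

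Several of the 7 genes have a close neighbour whose transcript did not follow. Ung overlaps the start of Alkbh2, a DNA alkylation repair gene on the opposite strand, by 868 bases of RefSeq span. The pair shares 0 exon bases in GENCODE vM21. Alkbh2 had 12.0 ± 5.76 CPM in knockout plasmablasts and 6.60 ± 1.80 CPM in knockout GC B cells (log2 0.87, SE 0.38, edgeR adjusted p = 0.0771). In controls it had 9.61 ± 3.81 CPM in plasmablasts and 4.70 ± 0.529 CPM in GC B cells (log2 1.02, SE 0.39, adjusted p = 0.0464). The starts of Polh and of Xpo5, the export factor of miRNA precursors, lie 170 bases apart on opposite strands, and the Polh window printed above holds both. Xpo5 did not pass in knockouts (log2 0.57, adjusted p = 0.138). In controls it had 43.5 ± 14.7 CPM in plasmablasts and 24.7 ± 0.516 CPM in GC B cells (log2 0.82, SE 0.30, adjusted p = 0.0396). Either call in controls was lost when 1 of several pools was left out. Alkbh2 had an adjusted p of 0.109 to 0.366 without GC pool 1, GC pool 2 or plasmablast pool 2, and Xpo5 one of 0.109 to 0.344 without GC pool 1, GC pool 2 or plasmablast pool 1.

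Pms2 and Aimp2, whose product scaffolds aminoacyl-tRNA synthetases, start 62 bases apart. Aimp2 had 25.0 ± 3.04 CPM in control plasmablasts and 42.1 ± 9.45 CPM in control GC B cells, lower like Pms2 (log2 -0.76, SE 0.27, edgeR adjusted p = 0.0329). That call was lost under RLE scaling (adjusted p = 0.0538), without immunoglobulin genes (0.0526) and without GC pool 2 (0.199), plasmablast pool 1 (0.165) or plasmablast pool 2 (0.0561). Fbxo11, which meets the end of Msh6 with 34 shared exon bases, had 46.2 ± 0.262 CPM in control plasmablasts and 52.2 ± 10.4 CPM in control GC B cells (log2 -0.18, SE 0.24, adjusted p = 0.559).

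Overlaps limit 2 of the 7 genes. Rev1 and Eif5b, which encodes a translation initiation factor, run into each other from opposite strands and share 1643 exon bases in GENCODE vM21. The counting's strand setting is not stated in the sources used here, so reads from that stretch cannot be told apart. Eif5b had 284 ± 18.2 CPM in control plasmablasts and 222 ± 5.94 CPM in control GC B cells (log2 0.36, SE 0.21, edgeR adjusted p = 0.167). Apex2 shares 123 exon bases with Pfkfb1 and 311 with Alas2. Pfkfb1 had 0.906 ± 0.138 CPM in control plasmablasts and 4.73 ± 0.267 CPM in control GC B cells (log2 -2.39, SE 0.39, adjusted p = 0.000286), and Alas2 averaged under 1 CPM in each group. The Apex2 span also covers Tmem29 (log2 -0.91, adjusted p = 0.0905), and Gtpbp2 lies 1984 bases from Polh (log2 0.70, adjusted p = 0.113).

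**Figure D5:**
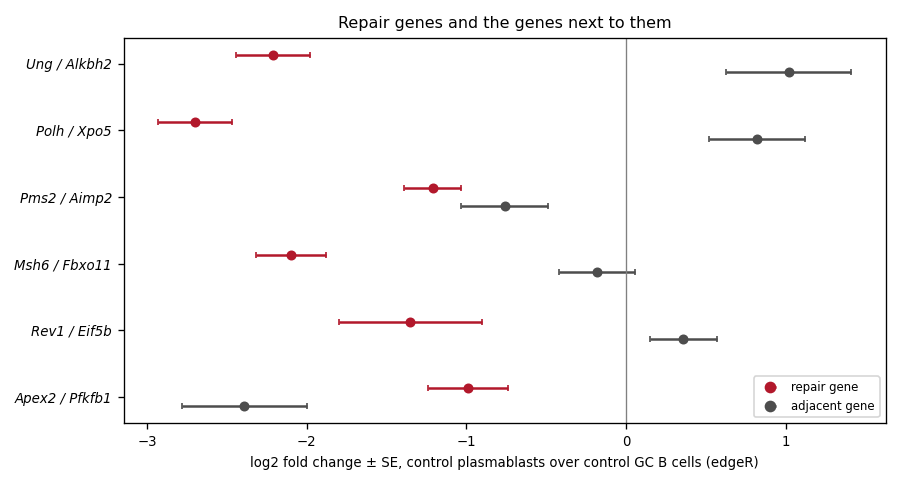
Log2 fold change ± SE of control plasmablasts over control GC B cells (edgeR) for 6 of the 7 genes, each above an adjacent or overlapping gene. Red points are the repair genes and grey points their neighbours. Ung (-2.21) and Polh (-2.70) lie left of 0 and Alkbh2 (1.02) and Xpo5 (0.82) right of it. Rev1 (-1.35) and Eif5b (0.36) also lie on opposite sides. Apex2, Pms2 and Msh6 lie on the same side of 0 as the neighbours shown, with Fbxo11 at -0.18 beside Msh6. Alas2, which also overlaps Apex2, is not shown.

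In GC B cells 12 days after immunisation, none of the 7 genes passed the test between Myb knockout and control pools. The estimates ran from log2 -0.21 for Rev1 to 0.19 for Ung, 0 of 7 were called, and 0 of 7 had an unadjusted p under 0.05 in edgeR. DESeq2 and the fit with the replicate block also called 0 of 7. Over all genes edgeR called 0.236% higher and 0.0228% lower, and with the block 2.03% higher and 0.396% lower. Exo1 was higher in both knockout pools (30.4 and 33.3 CPM) than in both control pools (29.2 and 27.9 CPM), and Polh was lower (102 and 105 CPM in knockouts, 116 and 111 CPM in controls). Neither passed, with log2 0.16 (SE 0.18, edgeR adjusted p = 1) for Exo1 and log2 -0.13 (SE 0.21, adjusted p = 1) for Polh. The other 5 genes overlapped between the groups. The share of all genes without overlap was not counted, here or in the comparisons below. With 2 pools against 2, an exact permutation p for such a separation cannot go below 0.333.

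The intervals show what these 2 pools a side can resolve, without and with the date pairs as a block. For Rev1 the 95% interval of the Myb difference in GC B cells ran from -1.15 to 0.72, and with the block from -0.59 to 0.16. Over the other 6 genes the bounds lay between -0.70 (Apex2) and 0.66 (Ung), and with the block between -0.56 (Apex2) and 0.51 (Ung). Within the date pairs the knockout to control ratio of Rev1 was log2 -0.21 and -0.22, and that of Msh6 -0.01 and 0.00. Without the knockout library whose label is in doubt, 0 of 7 genes were called and the estimates ran from log2 -0.84 for Rev1 to 0.36 for Ung. Plasmablast markers summed to 1310 to 1850 CPM in knockout GC pools and 925 to 1480 CPM in control GC pools. Of these 7 markers 6 lay above 0, and 1 was called higher without the block and 4 with it. Their part in the estimates was not tested.

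In plasmablasts the Myb comparison gave estimates from log2 -0.23 for Pms2 to 0.25 for Ung, again with 0 of 7 called, 0 of 7 at an unadjusted p under 0.05 in edgeR, and 0 of 7 in DESeq2. The background was 0.00762% of genes called higher and 0.0305% called lower (0.213% and 0.366% with the block). Ung was higher in both knockout pools (12.3 and 13.3 CPM) than in both control pools (9.61 and 12.0 CPM), with log2 0.25 (95% interval -0.27 to 0.77). Pms2 was lower in both knockout pools (10.3 and 9.87 CPM) than in both control pools (12.2 and 11.4 CPM), with log2 -0.23 (95% interval -0.65 to 0.19). Exo1 had a 95% interval of -0.68 to 0.52. With the block the intervals were -0.17 to 0.67 for Ung, -0.58 to 0.12 for Pms2 and -0.76 to 0.55 for Exo1. The Myb difference in plasmablasts minus that in GC B cells ran from log2 -0.24 (Exo1 and Pms2) to 0.20 (Apex2), with 0 of 7 called and a background of 0% higher and 0.00762% lower (0.0609% and 0.480% with the block). Without Myb knockout GC pool 1 that difference ran from -0.30 (Exo1) to 0.66 (Rev1), again with 0 of 7 called.

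In the Moz comparison, in GC B cells at day 7, all 7 estimates lay below 0, from log2 -0.18 for Ung and Exo1 to -0.11 for Rev1. Of all genes tested, 52.4% lay below 0. In edgeR 0 of 7 were called and 0 of 7 had an unadjusted p under 0.05. The same fit called 0% of genes in each direction, with 315 genes at an unadjusted p under 0.05, while the fit with the replicate block called 39 genes (0.267% higher and 0.0305% lower) and DESeq2 11. Exo1 was lower in both knockout pools (29.8 and 25.3 CPM) than in both control pools (30.9 and 31.5 CPM), with a 95% interval of -0.57 to 0.21. Pms2 was also lower in both knockout pools (18.6 and 21.2 CPM, against 22.1 and 22.0 CPM in controls), with an interval of -0.53 to 0.23. The date pairs did not agree in sign for Ung (log2 0.13 and -0.48), Apex2 (0.14 and -0.49) and Rev1 (-0.46 and 0.31). With the block the 95% intervals were -0.46 to 0.09 for Exo1 and -0.42 to 0.12 for Pms2. The smallest edgeR adjusted p with the block was 0.645, for Exo1.

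None of the genes tested in the base excision, mismatch, translesion or AID cofactor lists, or in the licensing list, was called in any of the 3 knockout comparisons, with or without the block. In the Moz comparison the licensing list also lay below 0 throughout (14 of 14, median log2 -0.17), near the median of the 7 repair genes (-0.15). GC markers lay below 0 as well (8 of 8, median -0.21), with sums of 2320 to 2700 CPM in Moz knockout pools and 2720 CPM in both control pools. Plasmablast markers lay above 0 (7 of 7, median 0.56). They summed to 6020 to 7210 CPM in Moz knockout pools and 4610 to 4860 CPM in controls. Of either marker list 0 were called without the block, and with it 1 plasmablast marker was called higher. The part of these lists in the 7 estimates was not tested. In the Myb comparison of plasmablasts 12 of 14 licensing genes lay above 0 (median 0.37), whereas the 7 repair genes had a median of -0.04.

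Control GC B cells at day 12 and at day 7 came from different experiments, and their genotypes differ in the floxed Myb alleles and AID-cre, so time cannot be told apart from these. This comparison shares its day 12 pools with the Myb comparison. The estimates ran from log2 -0.13 for Exo1 to 0.46 for Rev1, with 0 of 7 called in edgeR (0 at an unadjusted p under 0.05) and in DESeq2, and a background of 0.297% higher and 1.08% lower. Pms2 had 29.7 and 25.2 CPM at day 12 and 22.1 and 22.0 CPM at day 7, with no overlap (log2 0.32, SE 0.17, adjusted p = 0.818). The Rev1 estimate had an interval of -0.47 to 1.39. Plasmablast markers summed to 925 to 1480 CPM at day 12 and 4610 to 4860 CPM at day 7. Of these markers 5 of 7 were called lower (median log2 -2.08), and 6 with the block. All 8 GC markers lay above 0 (median 0.39, 0 called). The part of either marker list in the estimates was not tested.

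The genes most like each of the 7 across libraries were named by the highest Pearson r of log2 CPM, as a description. Over all 12 libraries, whose points share the split between the cell types, the 2 closest were Noc4l and Impdh2 for Ung (r 0.996 each), Cetn4 and Rbm12 for Msh6 (0.996 each) and Il21r and Cdca4 for Exo1 (0.998 each). They were Ccdc50 and the carboxypeptidase gene Cpm for Polh (0.997 each), Kdm3b and Strn4 for Rev1 (0.984 and 0.983), Dbnl and Mtmr12 for Pms2 (0.990 and 0.987) and Uchl4 and Memo1 for Apex2 (0.978 and 0.974). Over the 8 GC libraries alone they were Psmb10 and Snrnp25 for Ung (0.986 each), Ilk and Zdhhc2 for Msh6 (0.996 and 0.988) and Pop4 and Pdap1 for Exo1 (0.965 and 0.943). For Polh they were Bcl6, the GC master regulator (0.965), and Synrg (0.937), and for Rev1 Son and Smg1 (0.987 and 0.986). Dbnl and Pole were closest to Pms2 (0.967 and 0.957), and Fam118b and Rpl18 to Apex2 (0.981 and 0.971). Dbnl was the only one of these genes named in both sets of libraries. Without Myb knockout GC pool 1, r over the 7 other GC libraries was 0.945 to 0.997 for the same 14 genes, although at least 1 other gene entered the closest 2 for every member but Msh6.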

How the data were processed

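The unit is the raw count of reads per gene deposited by the authors, made with featureCounts against the mm10 build according to the submitters' processing notes. Aligner and strand setting were not given in the sources used here. RefSeq (GRCm38.p6) gave symbols for 25275 of 27179 IDs. All 12 libraries entered 1 edgeR 4.0.16 model (R 4.3.3) of 6 group means, leaving 6 residual degrees of freedom, after filterByExpr (minimum count 10, minimum total 15) and TMM scaling. Tests were two-sided quasi-likelihood tests with Benjamini-Hochberg adjustment over 13131 genes and a limit of 0.05. The biological coefficient of variation was 0.221. Log2 CPM for likeness used a prior count of 2. Alternatives were RLE factors, DESeq2 1.42.0, no filter, no immunoglobulin genes, the compared groups alone, a replicate block and each library left out. Same-numbered knockout and control pools share dates per the labels, so their numbers pair them. Their deviations correlated at 0.600 (Myb GC), 0.453 (Myb plasmablasts) and 0.361 (Moz). Control GC pools of day 12 and day 7, from different experiments, correlated at 0.382, so the correlation cannot tell paired from unpaired pools. All p-values measure the spread between these pools. With 2 pools against 2 an exact permutation p cannot go below 0.333. Neighbours are genes that overlap a member or lie within 2000 bases. Named list genes are up to 4 per list with the largest called change and a mean log2 CPM of 2 or more, and any gene named outside that rule is said to be. The members and lists were chosen with earlier results of these data known. The fit was tested on simulated data.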

Additional observations from a re-analysis of the deposited data

How the results depend on the processing

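Over all alternatives, 509 of the member estimates kept their direction or lack of a call, 9 lost their call and 0 called ones changed sign. In plasmablasts against GC B cells 7 of 7 genes were called under RLE factors, DESeq2, no filter, no immunoglobulin genes and the replicate block, in knockouts and in controls. The compared groups alone called 6 of 7 in knockouts (Apex2 lost, log2 -0.71, adjusted p = 0.0893) and 7 of 7 in controls. Plasmablast and GC pools share a number but no date (correlation of deviations 0.303 in knockouts and 0.247 in controls), so this block is no pairing by the design. With it Rev1 had log2 -1.27 (adjusted p = 0.00141) in knockouts and -1.32 (0.000984) in controls, and 3 of 15 translesion genes were called higher in each genotype. Of all 13131 genes that fit called 7680 in knockouts and 7884 in controls, both directions together, against 6770 and 6984 without the block. The share of all genes called higher was not counted with the block. Without the block that share was 24.4% in knockouts and 25% in controls. Leaving out 1 pool called 5 to 6 in knockouts and 6 to 7 in controls, Rev1 and Apex2 being the genes lost. All other comparisons called 0 of 7 under every alternative, the fit paired by the replicate block included. The median of all genes in controls, -0.17, was -0.08 under RLE factors, -0.05 without immunoglobulin genes and 0 without a filter, while the median of the 7 stayed between -2.18 and -1.99 outside the leave-one-out fits. Counts over all genes moved more. The Myb GC comparison called 34 genes, and 161 in DESeq2, 320 without a filter, 22 without immunoglobulin genes, 0 in the compared groups alone, 318 with the block and 0 to 39 without 1 pool. The Myb plasmablast comparison called 5, and 50, 104, 0, 0, 76 and 0 to 2 in that order. For Moz the same counts were 0, and 11, 55, 0, 0, 39 and 0 to 3. Day 12 against day 7 called 181, and 358, 501, 105, 104, 281 and 19 to 105, and the difference of the Myb effects 1, and 45, 136, 1, 0, 71 and 0 to 3. Further limits are depth, since Exo1 had 13 to 21 counts in plasmablasts, and scaling: unscaled CPM, which count the immunoglobulin transcripts, gave mean differences of 7.21-fold (Apex2) to 59.2-fold (Exo1).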
